A study of Mus musculus with 8 samples.

Results

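AP-1 (activator protein 1) is a family of transcription factors that bind DNA as pairs of proteins. Of 43346 genes in the deposited table, 10 were taken as this family and described here, chosen by gene name: Jun, Junb, Jund, Fos, Fosb, Fosl1, Fosl2, Batf3, Maff and Mafk. All 10 were found in the table, and 9 had enough reads to be tested. They were measured by poly(A) RNA sequencing in MC3T3, a line of mouse pre-osteoblasts able to mineralize their matrix in culture. All cells grew for 7 days with ascorbic acid (100 ug/mL) and beta-glycerophosphate (10 mM). In the LLC_CM group (4 libraries) this medium held 25% of a filtered, serum-free medium that LLC1 cells, a mouse lung carcinoma line, had conditioned for 48 hours. The NCM group (4 libraries) was taken as the vehicle control by elimination, since the labels do not explain the name. All libraries come from a single cell line. Whether the replicates were separate cultures is not stated, so the p-values reflect only how far these libraries differ among themselves, and that spread may be technical.

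Jun proteins pair with each other or with Fos proteins through a leucine zipper, and the pair binds the palindrome TGANTCA. Fos proteins form pairs with Jun proteins but not stable pairs with themselves. Batf3 and the small Maf proteins Maff and Mafk have zippers but lack a transactivation domain, and small Maf proteins also pair with factors such as Nfe2l2. Jun, Junb, Fos and Fosb are immediate early genes, induced within minutes by growth factors, cytokines and stress and then quickly silenced. In bone, Fos-related proteins, above all those encoded by Fosl1, Fosl2 and a short form of Fosb, are known as promoters of osteoblast matrix formation. The collagenase genes are the classic targets of the family. The comparison asks how RNA levels in mineralizing osteoblasts differ with medium conditioned by lung carcinoma cells. Which property of that medium a difference comes from was not tested.

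In LLC_CM the RNA of Jun and Fosl1 was higher, that of Jund and Maff was lower, and the other 5 tested members did not pass the threshold. The Maff call was lost in 6 of 16 alternative settings, so that 1 or 2 members were called lower, while the other 3 calls held in all 16. Jun was 2.75-fold higher and Fosl1 2.05-fold higher, while Jund was 2.42-fold lower and Maff 1.58-fold lower. The most abundant member by far, Fosl2, differed by a log2 fold change of 0.12 ± 0.06 (SE), which was not past the threshold. A gene was called at an adjusted p under 0.05 (Benjamini-Hochberg over all 14991 genes tested) in edgeR's quasi-likelihood test. By that rule 36.9% of all genes tested were called, 18.8% higher and 18.1% lower, and 4 of the 9 tested members (44.4%) were called, 2 higher and 2 lower. The share of members called was near that of all genes. The 4 values of each group did not overlap for 3 of the 9 members, and for 36.3% of all genes tested. The median log2 fold change was -0.02 over the 9 members and 0.01 over all genes tested.

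The cells carried the RNA of osteoblasts in both groups. The summed level of 6 osteoblast markers was 20841 to 26153 CPM (counts scaled to library size) in LLC_CM and 29322 to 38445 CPM in NCM. All 6 fell. Most of that sum was Col1a1 (1.41-fold lower) and Ibsp (1.36-fold lower). Bglap was 81.8-fold, Alpl 4.55-fold, Sp7 2.30-fold and Runx2 1.98-fold lower. Of 5 epithelial markers, taken because LLC1 is a carcinoma line, Epcam, Krt8 and Krt18 had 0 counts in every library, and the sum was at most 0.177 CPM. The summed level of 5 macrophage markers was 18.7 to 32.3 CPM in LLC_CM and 11.7 to 17.4 CPM in NCM, most of it from Lyz2. Of the 4 tested, Lyz2 and Fcer1g rose, Cd68 (log2 fold change 0.12) and Csf1r (-0.48) did not pass, and Fcer1g met the filter on low counts only with its LLC_CM libraries. Ptprc, which defines blood cells, had 0 counts in LLC_CM and 4 in NCM. The summed level of 4 adipocyte markers was 9.44 to 16.1 CPM in LLC_CM and 3.32 to 5.14 CPM in NCM, nearly all of it Fabp4, which rose, while Adipoq, Pparg and Plin1 had too few reads to be tested. The summed level of 4 chondrocyte markers was 35.3 to 37.4 CPM in LLC_CM and 66.5 to 92.5 CPM in NCM: Col2a1 was 28.3-fold lower and Sox9 1.70-fold higher, and Acan and Col10a1 had at most 2 counts in all. The summed level of 3 endothelial markers was at most 0.247 CPM. The part of these markers in the results on the family was not tested. In these bulk samples, fewer cells of a type and less RNA per cell cannot be told apart. Library totals ran from 27264212 to 35573953 reads, so a count of 3, the most that a count of 0 allows at this depth, stood for 0.0840 to 0.111 CPM (counting error only).

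Among the Jun genes, Jun rose, Jund fell and Junb overlapped between the groups. Jun (ENSMUSG00000052684, mm10 chromosome 4, 95049034 to 95052222), the strongest activator among the Jun proteins, had 5.22, 6.18, 5.21 and 6.61 CPM in the LLC_CM libraries and 1.67, 1.77, 2.40 and 2.55 CPM in the NCM libraries. Every LLC_CM library lay above every NCM library. Its means were 5.80 ± 0.70 and 2.10 ± 0.44 CPM (SD, n = 4), and its log2 fold change was 1.46 ± 0.17 (SE, edgeR, adjusted p = 6.1e-06). These values rest on 162 to 221 reads a library in LLC_CM and 49 to 81 in NCM. The antisense gene Junos, which overlaps the end of Jun that holds its start, had 138 counts over LLC_CM and 75 over NCM, and did not pass the threshold (log2 fold change 0.75 ± 0.33, SE, edgeR, adjusted p = 0.093). The library kit does not mark strand, so reads of Jun and Junos in the shared stretch cannot be told apart.

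The Jun promoter is shown because the gene is known to be bound by its own product at a variant AP-1 site. The sequence is from RefSeq (build GRCm38.p6, the assembly of mm10), chr4:95052223-95052472, minus strand, the 250 bases before the start of transcription, with the variant site in capitals.
Jun: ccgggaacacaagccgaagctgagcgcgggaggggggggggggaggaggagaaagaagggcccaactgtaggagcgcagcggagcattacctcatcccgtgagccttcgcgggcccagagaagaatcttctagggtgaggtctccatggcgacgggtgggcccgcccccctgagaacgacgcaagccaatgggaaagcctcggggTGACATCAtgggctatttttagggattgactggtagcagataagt
The capitals, TGACATCA, begin at position -45, counting the base before the start as -1. They match TGACNTCA, a motif added to the search after the letters were seen, which 8.83% of all 32851 promoter windows hold and which includes TGACGTCA. Among the members with a window, Jun and Maff held it.

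Jund, which unlike its relatives is expressed steadily in resting cells, moved the other way. Jund (ENSMUSG00000071076, chromosome 8, 70697739 to 70700616) had 1.13, 1.44, 1.26 and 1.37 CPM in LLC_CM and 2.29, 2.87, 4.52 and 2.93 CPM in NCM. The groups did not overlap, and NCM replicate 3 was the highest library. The log2 fold change was -1.27 ± 0.22 (SE, edgeR, adjusted p = 0.00030), with means of 1.30 ± 0.14 CPM in LLC_CM and 3.15 ± 0.96 CPM in NCM (SD, n = 4). Counts were 35 to 46 a library in LLC_CM and 67 to 128 in NCM. In the GENCODE M21 annotation 52.6% of the exonic bases of Jund overlap the gene model Gm11175 on the other strand. In the deposited table the spans of these genes share 543 bases. Gm11175 took 19 reads over LLC_CM and 12 over NCM. How reads in the shared bases were assigned is not given in the sources used here. Whether this lowered the counts of Jund, and so its level and share, was not tested.

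Junb, a weaker activator that can hold back Jun, varied more among the LLC_CM libraries than any other tested member, on the log2 scale. It had 2.93, 2.11, 3.50 and 5.11 CPM in LLC_CM and 2.90, 3.90, 5.23 and 2.78 CPM in NCM. The highest libraries were LLC_CM replicate 4 and NCM replicate 3, and the groups overlapped. The log2 fold change was -0.10, with a 95% confidence interval of -0.66 to 0.45 (edgeR, adjusted p = 0.80). The SD of log2 CPM within groups was 0.53 in LLC_CM and 0.42 in NCM, against a median of 0.15 over all genes tested, most of which have more reads.

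**Figure D1:**
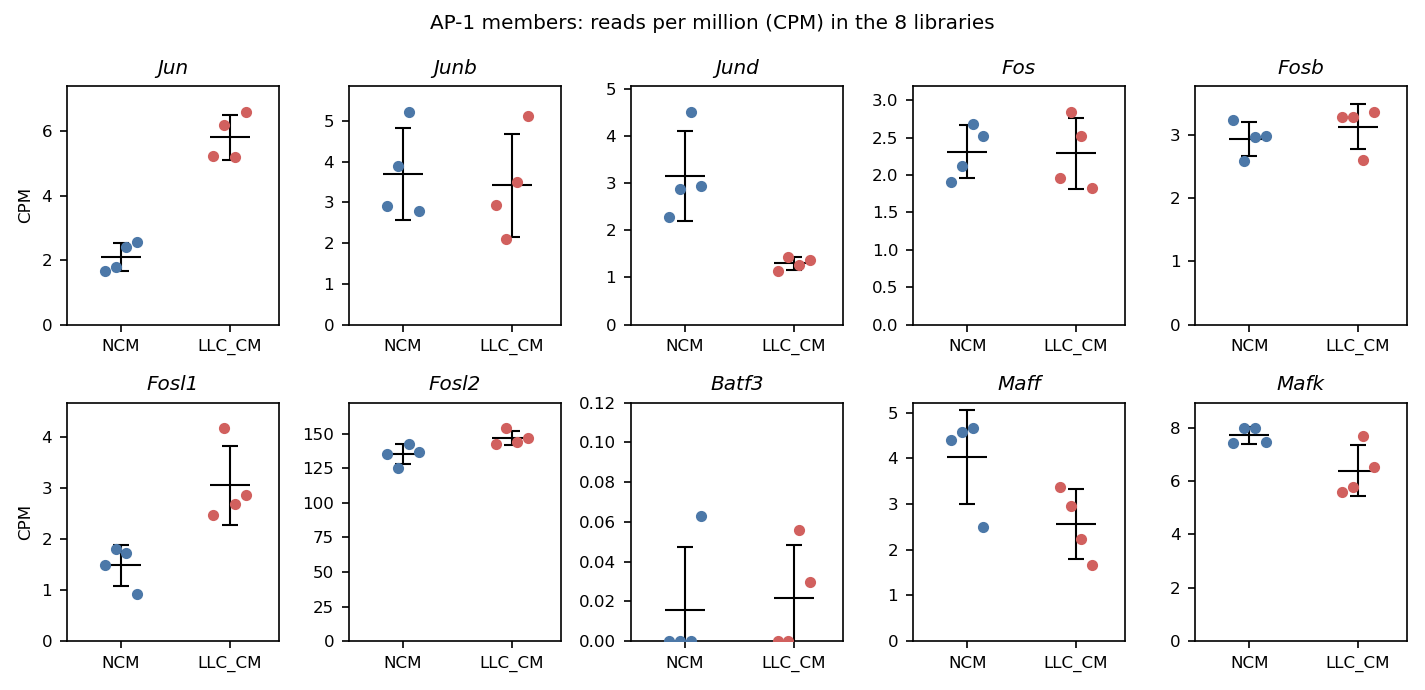
Level in CPM (vertical axes from 0, a separate scale for each gene) of the 10 members in the 4 NCM (blue) and 4 LLC_CM (red) libraries, with the mean and SD in black. Jun and Fosl1 lie higher and Jund lower in all LLC_CM libraries, and Batf3 stays at or below 0.0631 CPM.

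Among the Fos genes, Fosl1 rose, and Fos, Fosb and Fosl2 did not pass the threshold. Fosl1 (ENSMUSG00000024912, chromosome 19, 5447703 to 5455945) encodes Fra-1, a Fos protein without the strong activation domain of Fos. It had 2.48, 4.18, 2.69 and 2.87 CPM in LLC_CM and 1.50, 1.81, 1.73 and 0.915 CPM in NCM. The groups did not overlap, LLC_CM replicate 2 being the highest and NCM replicate 4 the lowest library. The log2 fold change was 1.04 ± 0.24 (SE, edgeR, adjusted p = 0.0027), on 77 to 113 reads a library in LLC_CM and 29 to 51 in NCM. In the GENCODE M21 annotation 57.2% of its exonic bases overlap Ccdc85b on the other strand. The spans of these genes in the deposited table do not overlap. The library kit does not mark strand, so reads in those bases cannot be told apart. Whether reads of Ccdc85b were counted as Fosl1, and changed its level or fold change, was not tested. Ccdc85b had 241 counts over LLC_CM and 173 over NCM, and Fosl1 had 382 and 173. Ccdc85b had a log2 fold change of 0.35 ± 0.31 (SE, edgeR, adjusted p = 0.42).

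Fosl2 (ENSMUSG00000029135, chromosome 5, 32136472 to 32157831), which encodes Fra-2, had 143, 154, 144 and 147 CPM in LLC_CM and 136, 126, 143 and 137 CPM in NCM. The lowest LLC_CM library (replicate 1) was just under the highest NCM library (replicate 3), and the other LLC_CM libraries lay above all NCM libraries. With 3545 to 5144 reads a library it was the most precisely measured member, and the 95% confidence interval of its log2 fold change was 0.0015 to 0.24. It did not pass after adjustment over all genes (edgeR, unadjusted p = 0.048, adjusted p = 0.11).

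Fos (chromosome 12, 85473890 to 85477273), the prototype immediate early gene, had 1.96, 2.85, 2.52 and 1.82 CPM in LLC_CM and 1.91, 2.13, 2.68 and 2.52 CPM in NCM. Its log2 fold change was -0.02, with a 95% confidence interval of -0.44 to 0.40 (edgeR, adjusted p = 0.96). Fosb (chromosome 7, 19302721 to 19310045), whose short form is known to raise bone mass in mice, had 3.28, 3.29, 2.60 and 3.38 CPM in LLC_CM and 3.24, 2.59, 2.97 and 3.00 CPM in NCM. Its log2 fold change was 0.09, with an interval of -0.24 to 0.42 (edgeR, adjusted p = 0.70). The groups overlapped for both genes. All libraries are from a single time, 7 days, so a brief induction of Fos, Fosb or Junb at an earlier time could not be seen. The counts are per gene, so the long and short forms of Fosb cannot be told apart.

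Of the dimer partners without an activation domain, Maff fell, Mafk did not pass the threshold and Batf3 was near absent. Maff (chromosome 15, 79347541 to 79359072), a small Maf protein, had 3.38, 2.96, 2.24 and 1.67 CPM in LLC_CM and 4.40, 4.57, 4.66 and 2.49 CPM in NCM. NCM replicate 4 stood below the other NCM libraries and within the LLC_CM range, so the groups overlapped. The log2 fold change of Maff was -0.66 ± 0.24 (SE, adjusted p = 0.042 in edgeR). That call was lost in limma-voom (adjusted p = 0.051) and without LLC_CM replicates 3 (edgeR, adjusted p = 0.083) or 4 (0.11) or NCM replicates 1 (0.089), 2 (0.10) or 3 (0.094), and without NCM replicate 4 it was 0.0065. Mafk (chromosome 5, 139791513 to 139802653), its close relative, had 5.60, 5.77, 7.67 and 6.52 CPM in LLC_CM and 7.44, 7.97, 7.98 and 7.44 CPM in NCM. Only LLC_CM replicate 3 reached the NCM range. The log2 fold change of Mafk was -0.27 ± 0.12 (SE, edgeR, adjusted p = 0.10), and without that library it passed (adjusted p = 0.024). Batf3 (chromosome 1, 191097847 to 191108945), known for its part in dendritic cells, had 0, 0, 2 and 1 reads in LLC_CM and 0, 0, 0 and 2 in NCM. It was at or under the limit of a count of 0 in both groups, so no fold change is given.

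**Figure D2:**
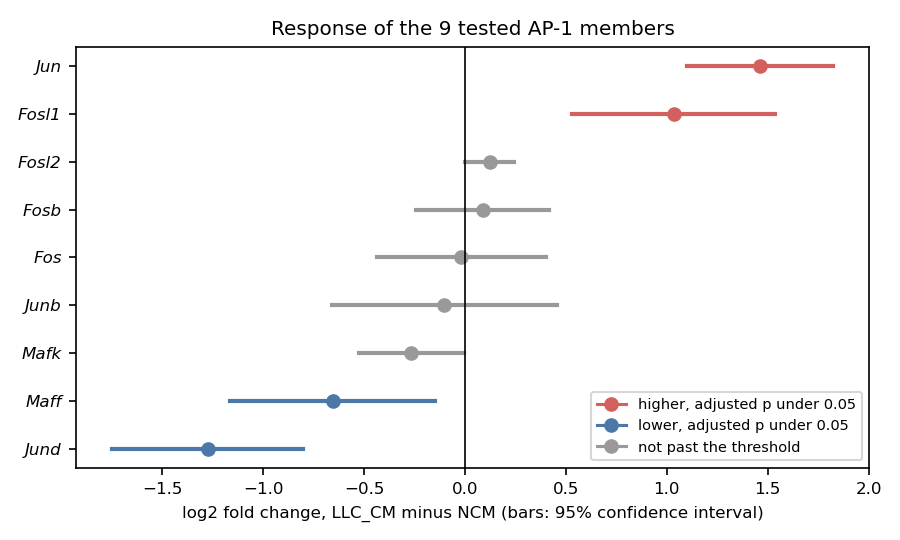
Log2 fold change of the 9 tested members (horizontal axis, LLC_CM minus NCM), with points for the estimate and bars for the 95% confidence interval from edgeR. Jun and Fosl1 (red) lie to the right of 0, Jund and Maff (blue) to the left, and 5 members (grey) were not past the threshold.

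Of 10 pairs of relatives, 6 passed the threshold in their ratio, but not when single libraries were left out. Each of the 6 holds Jun, Jund or Fosl1, which were called above from the same libraries, so they are not separate results. For each of 10 pairs of relatives the log2 ratio of the 2 genes was taken in each library and compared between the groups in a two-sided exact permutation test. The ratio of Jun to Jund rose by 2.70 on the log2 scale, from -0.56 ± 0.31 in NCM to 2.14 ± 0.10 in LLC_CM (SD, n = 4, exact p = 0.029, adjusted p = 0.048 over the 10 pairs). The ratio of Jun to Junb rose by 1.62 and that of Junb to Jund by 1.09. Fosl1 rose relative to Fosl2 by 0.92, and the ratios of Fos and Fosb to Fosl1 were lower by 1.07 and 0.96. Each of these 6 ratios separated the groups fully and had the same exact p of 0.029, the smallest that 4 against 4 libraries allow, and the same adjusted p. That adjusted p depends on how many of the 10 pairs reach the smallest exact p together. None of the 6 adjusted values stayed under 0.05 when any single library was left out (0.057 to 0.095), where the smallest raw p is also 0.029. The ratios of Fos to Fosb, Fos to Fosl2, Fosb to Fosl2 and Maff to Mafk did not pass (exact permutation test, adjusted p = 0.80, 0.46, 0.80 and 0.37), which does not show that these pairs act alike.

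Levels of different genes were compared per length, as CPM per kilobase of the gene length in the deposited table. Fosl2 stood far above the rest, at 25.1 ± 0.86 CPM per kb in LLC_CM and 23.1 ± 1.23 in NCM (SD, n = 4). In NCM the level per kb then ran from Junb (2.01), Mafk (1.98) and Maff (1.90) through Jund (1.10), Fos (0.982), Fosl1 (0.872) and Fosb (0.786) to Jun (0.658) and Batf3 (0.0099). From Junb down to Jun each member's range overlapped that of the next, so only Fosl2 and Batf3 were set apart from their neighbours. In LLC_CM the order was Junb (1.85), Jun (1.82), Fosl1 (1.79), Mafk (1.64), Maff (1.21), Fos (0.973), Fosb (0.837), Jund (0.452) and Batf3 (0.013). There Jund also lay below its neighbour Fosb without overlap with this length. With the longest annotated transcript as length, an alternative chosen after the values were seen, Jund (0.780 CPM per kb) and Fosb (0.830) overlapped in LLC_CM. In NCM the same length gave Jund 1.89 CPM per kb, which then did not overlap Fos below it, and Mafk (2.49) lay above Maff without overlap. Jun was lowest of the 9 tested members in NCM by either length, and in LLC_CM it took place 3 by the deposited length and place 4 by the longest transcript.

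The make-up of the Jun subfamily shifted while its sum overlapped. The summed level of Jun, Junb and Jund was 4.13 ± 0.82 CPM per kb in LLC_CM and 3.76 ± 0.99 in NCM (SD, n = 4). With the longest annotated transcript as length it ran from 3.93 to 5.72 in LLC_CM and from 3.50 to 6.35 in NCM. Jun made up 44.8% ± 6.69 of that sum in LLC_CM (38.9% to 54.0%) and 18.0% ± 4.35 in NCM (14.6% to 24.1%). Jund made up 11.2% ± 2.07 in LLC_CM and 28.9% ± 1.86 in NCM. Junb held 44.0% ± 8.68 and 53.1% ± 5.39, with overlapping ranges. The summed level of the 4 Fos genes was 28.7 ± 1.48 CPM per kb in LLC_CM and 25.7 ± 1.33 in NCM (SD, n = 4). Its ranges, 27.6 to 30.9 and 24.1 to 27.4, did not overlap. In the Fos subfamily Fosl2 held 87.5% ± 1.49 in LLC_CM and 89.7% ± 0.76 in NCM (SD, n = 4). Fosl1 held 6.18% ± 1.19 and 3.40% ± 0.97 (SD, n = 4). These shares depend on the length used: with the longest annotated transcript, Jund held 17.7% in LLC_CM and 40.9% in NCM, and its direction was the same. Sums and shares over the members are descriptions and were not tested.

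**Figure D3:**
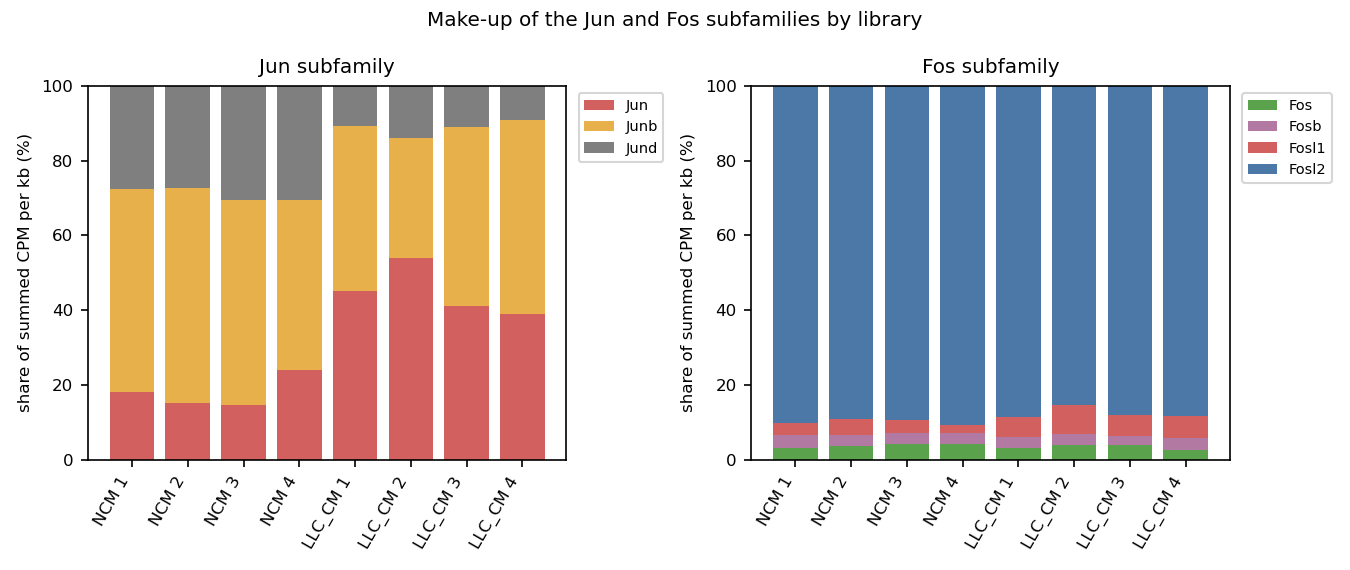
Share of each member in the summed CPM per kb of its subfamily (vertical axis, percent) in each library, with the Jun genes on the left and the Fos genes on the right. The Jun share (red, left) is 14.6% to 24.1% in NCM and 38.9% to 54.0% in LLC_CM, and Fosl2 (blue, right) holds at least 85.3% in every library.

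Of the collagenase genes on a list of classic AP-1 targets, both with enough reads to be tested, Mmp13 and Mmp8, rose. Of all 14 tested genes on that list, 7 rose and 4 fell (78.6% called, against 36.9% of all genes tested). Their median log2 fold change was 0.24. Of the 7 that rose, 3 (Mmp9, Il6 and Ccl2) met the filter on low counts only with the LLC_CM libraries, where they are high, so the count supports nothing about the list as a whole. Mmp13, the main collagenase of rodent bone, rose 25.7-fold, from 290 ± 21.2 CPM to 7466 ± 728 CPM (SD, n = 4). Mmp8, another collagenase, rose by 3.69 ± 0.21 on the log2 scale (SE) from 0.605 CPM to 7.85 CPM. Hmox1, the heme oxygenase gene, rose by 1.36 ± 0.09 (SE), and Ccnd1, which encodes cyclin D1, fell by 0.62 ± 0.06 (SE). The adjusted p of these 4 genes was at most 1.0e-06 (edgeR). Mmp1a, Mmp1b, Mmp3, Mmp10 and Mmp12 had 0 counts in all 8 libraries.

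Matches to the AP-1 motif in the Mmp genes of that list are shown because the genes that carry them differed so widely in RNA level. The motif was TGANTCA, searched on both strands of the RefSeq windows from 250 bases before to 50 bases after each start (build GRCm38.p6). Of 12 genes of the target list with a window, 9 held it, against 8.97% of all 27025 genes with a window, and the list was chosen as known AP-1 targets. Of 7 Mmp genes with a window 6 held it and Mmp8 did not. These 6 belong to the same gene family and lie close together on chromosome 9. They are therefore not independent cases to set against the share of all genes. Each line gives the match in capitals with 15 bases on either side, 5′ to 3′ on the strand of the gene.
Mmp13 (chr9:7272479-7272485, plus strand): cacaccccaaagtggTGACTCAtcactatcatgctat
Mmp3 (chr9:7445776-7445782, plus strand): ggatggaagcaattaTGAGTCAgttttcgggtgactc
Mmp10 (chr9:7502279-7502285, plus strand): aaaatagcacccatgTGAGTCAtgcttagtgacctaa
Mmp1a (chr9:7464068-7464074, plus strand): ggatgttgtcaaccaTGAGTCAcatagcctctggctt
Mmp1b (chr9:7388113-7388119, minus strand): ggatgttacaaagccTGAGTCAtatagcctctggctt
Mmp12 (chr9:7347330-7347336, plus strand): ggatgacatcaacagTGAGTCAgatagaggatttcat
The first bases of these matches lie at positions -35 (Mmp13), -46 (Mmp3), -63 (Mmp10), -73 (Mmp1a), -93 (Mmp1b) and -44 (Mmp12). Of these 6 genes, Mmp13 had 259 to 306 CPM in NCM and 6389 to 7996 CPM in LLC_CM, and the other 5 had no read. A match is a description of the letters, and binding was not measured.

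The members themselves held no TGANTCA in their windows. Windows were given for 9 of the 10 members, all but Fosl1. No window held a CArG box, the site of serum response factor, or the NF-kB type site searched. Of all windows, 1.63% hold a CArG box and 1.63% the NF-kB type site, so finding none in 11 windows says little. Sites outside the windows were not searched, so this does not show that these genes lack them. Maff held TGACGTCA, the cyclic AMP response element, in 1 of its 3 windows, at position -29, and 1.79% of all windows hold this motif. It is shown because Maff was the only member with a match to this motif (chr15:79347491-79347498, plus strand, the match in capitals).
Maff: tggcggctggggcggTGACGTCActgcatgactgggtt
Maff also held TTCCNGGAA, a STAT type site, at position +28 of the same window (1.15% of all windows).

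Bone genes linked to AP-1 all changed, mostly downward. Of 10 tested, 8 fell and 2 rose (100% called, against 36.9% of all genes tested), with a median log2 fold change of -0.80. All the osteoblast markers given above are on this list, so their fall is counted here again. The 2 that rose were Spp1 and Mgp, by 0.78 ± 0.12 and 0.61 ± 0.10 on the log2 scale (SE). This list, like the others around the family, was chosen with earlier results of these data known, so its share is a description. Bglap and Bglap2, near-identical osteocalcin genes whose reads cannot be split with certainty, fell by 6.35 ± 0.22 and 6.28 ± 0.24 on the log2 scale (SE). Alpl, alkaline phosphatase, fell by 2.19 ± 0.11 and Sp7, an osteoblast transcription factor, fell by 1.20 ± 0.08 (SE, edgeR, adjusted p at most 2.2e-08 for these genes).

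Of 15 tested immediate early genes outside the family, 8 fell and 1 rose (60% called, against 36.9% of all genes tested), with a median log2 fold change of -0.61. Klf4 and Klf2, zinc finger factors, fell by 2.68 ± 0.10 and 1.88 ± 0.16 on the log2 scale (SE). Egr1 was 13.1 ± 1.44 CPM in LLC_CM and 30.2 ± 2.41 CPM in NCM (SD, n = 4), and Nr4a2 fell by 1.21 ± 0.13 (SE, edgeR, adjusted p at most 2.4e-06 for these 4 genes). Fos is induced by many of the same signals as Egr1, and its values are given above. A single time, 7 days, cannot show how these genes responded earlier. The single rising call, Ier5 (log2 fold change 0.26 ± 0.09, SE, edgeR, adjusted p = 0.028), was named after its value was seen. The number of these genes called higher was 0 to 2 over the alternatives.

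Among the kinases and promoter-level regulators upstream of the family, 8 of 21 tested genes fell and 3 rose (52.4% called, against 36.9% of all genes tested), with a median log2 fold change of -0.13. Mef2c, a MADS-box factor that can bind the Jun promoter, was 6.15-fold lower, at 48.5 ± 6.47 CPM in LLC_CM and 299 ± 19.1 CPM in NCM (SD, n = 4). Its relative Mef2d fell by 0.94 ± 0.08 on the log2 scale (SE). Elk3, an Ets factor that acts with serum response factor, rose by 0.30 ± 0.06, and Mapk3, which encodes the kinase ERK1, rose by 0.22 ± 0.06 (SE, edgeR, adjusted p at most 0.0055 for these 4 genes). On the same list Srf, Elk1 and Elk4 were called lower, with log2 fold changes of -0.26, -0.24 and -0.21 (edgeR, adjusted p = 0.027, 0.024 and 0.0093). The number of genes on this list called lower was 6 to 9 over the alternatives.

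Of 10 tested genes for turnover and partners of AP-1 proteins, 2 fell and none rose (20% called, a lower share than the 36.9% of all genes tested), with a median log2 fold change of -0.09. Both that fell encode a ubiquitin ligase, or a part of one, known to act on Jun proteins. Fbxw7 was 2.50-fold lower, at 17.0 ± 0.58 CPM in LLC_CM and 42.5 ± 2.21 CPM in NCM (SD, n = 4), and the groups did not overlap. Itch had a log2 fold change of -0.39 ± 0.05 (SE, adjusted p = 2.4e-05 in edgeR). Protein levels were not measured.

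**Figure D4:**
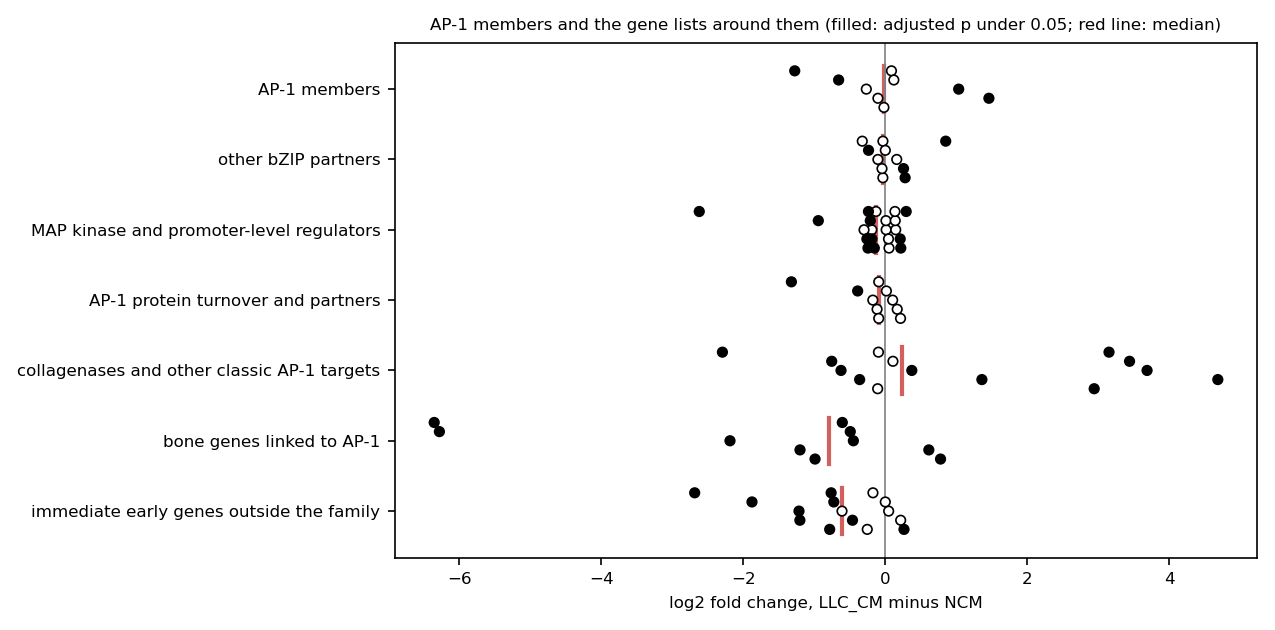
Log2 fold change (horizontal axis, LLC_CM minus NCM) of the 9 tested members and of the tested genes of 6 lists around the family, each point a gene, filled where the adjusted p was under 0.05, with the median as a red line. The 4 called members sit on both sides of 0, while the bone genes and the other immediate early genes lie mostly to the left, with medians of -0.80 and -0.61.

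The genes whose profile over the 8 libraries came closest to that of Jun were H2-K1, Cebpd and Slc9a3r1, and for Jund, the member with the lowest fold change, Enox1, Nupr1 and Metrnl. Closeness was the root mean square difference between log2 CPM values centred on each gene's mean, among 10811 tested genes outside the family with a mean of at least 5 CPM. It was 0.20 for each of the 3 genes near Jun, and 0.17, 0.18 and 0.19 for those near Jund. Cebpd, which encodes a C/EBP transcription factor, was 8.76 ± 1.47 CPM in LLC_CM and 3.37 ± 0.31 CPM in NCM. Nupr1, a stress-induced chromatin protein gene, was 64.1 ± 4.54 CPM in LLC_CM and 154 ± 20.0 CPM in NCM (SD, n = 4).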

How the data were processed

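The authors deposited raw read counts per gene for 8 libraries, as whole numbers, with gene lengths and positions. Per the submitters' processing notes, reads were handled with STAR, featureCounts and CASAVA on build mm10; no tool version is given there. Per the labels' protocols, libraries came from 200 ng of RNA with 12 PCR cycles and a TruSeq RNA kit, whose version (v2) does not mark strand. Sample titles gave the groups and replicate numbers. Genes were tested with the quasi-likelihood F test of edgeR 4.0.16 in R 4.3.3 (TMM factors, robust, filterByExpr, no covariate), tested on simulated data, on 14991 of 43346 genes. The SE of a log2 fold change is its size divided by the square root of F. Ratios of members used log2 CPM with a prior count of 0.5, and profiles a prior count of 2. Alternatives were other scaling factors and filters, DESeq2 1.42.0, limma-voom (limma 3.58.1), a replicate block and leaving out each library. The order of levels per kb with the longest transcript was added after the values were seen. No library was a repeat of another (smallest chi-square 7.07 per degree of freedom within a group). Exon overlaps and longest transcripts came from GENCODE M21 (GRCm38), promoters from RefSeq. The members and lists were chosen with earlier results of these data known. All 10 members were named, plus up to 4 genes per list with the smallest adjusted p and the 3 closest profiles for Jun and the member with the lowest fold change. The Mmp genes with 0 counts, Mmp9, Il6, Ccl2, marker genes, Junos, Gm11175, Ccdc85b and Ier5 were named after their values were seen. So were Spp1, Mgp, Srf, Elk1 and Elk4. Protein sequences were not used here.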

Additional observations from a re-analysis of the deposited data

Results flagged for a closer look

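In groups of 4 libraries, a value was singled out where its gap to the nearest library was too large a part of the group's range by Dixon's test at the 95% level, and chance alone does this in about 1 of 20 groups. Of 74 groups of named genes, 6 held such a library. Among the members, Fosb was 2.60 CPM in LLC_CM replicate 3, with the other LLC_CM libraries at 3.28 to 3.38 CPM. Maff was 2.49 CPM in NCM replicate 4, with the other NCM libraries at 4.40 to 4.66 CPM. Among the genes around the family, Mmp13 was 6390 CPM in LLC_CM replicate 1 (others 7730 to 7996), Alpl 12.5 CPM in LLC_CM replicate 2 (others 14.1 to 14.3) and Elk3 40.7 CPM in LLC_CM replicate 1 (others 43.7 to 43.8). Mef2d was 133 CPM in NCM replicate 3 (others 109 to 113).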

How the results depend on the processing

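The calls of Jun, Fosl1 and Jund held under all 16 alternatives, and no result changed sign past the threshold. Maff had a log2 fold change of -0.66 with limma-voom, where 1 member was called lower, and -0.84 to -0.50 when single libraries were left out, with 1 or 2 members called lower and adjusted p of 0.0065 to 0.11. Mafk had -0.38 to -0.21 when single libraries were left out. With the replicate number as a block, members called were 2 higher and 2 lower, as without it, and 0 of 10 ratios passed in sign flips over the 4 numbers, where the smallest possible p is 0.125. Leaving out single libraries also left 0 of 10 ratios past the threshold, with a log2 difference of 2.59 to 2.82 for Jun to Jund. The same-numbered libraries had correlations of their deviations of -0.04 to 0.20, so the numbers were not taken as pairs. With longest transcripts the shares were 4.15% (LLC_CM) and 4.69% (NCM) for Fos, 3.34% for Fosb, 88.5% for Fosl2 and 44.4% for Junb in NCM, and 17.7% and 40.9% for Jund. Jund, Fosl1 and Jun rest on 29 to 221 reads a library, which limits their precision.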

Other observations

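Among other leucine zipper factors that can pair with the family, the share called was near that of all genes tested. Of 11 tested, 3 rose, 1 fell and 7 did not pass the threshold (36.4% called, against 36.9% of all genes tested). Their median log2 fold change was -0.03. Maf, the large Maf factor that shares DNA sites with Maff and Mafk but has an activation domain, rose to 121 ± 6.57 CPM in LLC_CM, against 67.1 ± 3.68 CPM in NCM (SD, n = 4, edgeR, adjusted p = 3.4e-08). The groups did not overlap. Atf7 and Nfe2l2, the oxidative stress factor that pairs with small Maf proteins, rose by 0.28 ± 0.05 and 0.26 ± 0.06 on the log2 scale, and Atf2 fell by 0.24 ± 0.06 (SE, edgeR, adjusted p at most 0.0054 for these 3 genes). Atf3, an immediate early partner of Jun named after its values were seen, was 0.853 ± 0.17 CPM in LLC_CM and 0.867 ± 0.30 CPM in NCM (SD, n = 4) and did not pass the threshold.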
